A study of Mus musculus with 20 samples.

Results

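Transcripts of 9 genes that senescent cells are known to secrete or display, or that regulate what they secrete, were followed through 20 mouse nerve tumor libraries: the cytokines Il6, Il1a, Il1b, Tnf and Lif, the stress hormone Gdf15, the plasminogen activator Plau with its receptor Plaur, and Igfbp3. They were taken by name from the deposited table, which holds 24062 genes, and all 9 were found in it. Of the 9, 8 passed the expression filter that left 16589 genes for testing, and Il1a did not. Each gene was compared over 4 groups, with paraspinal subgroup 2 against paraspinal subgroup 1 as the first comparison.

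Senescent cells stop dividing but stay metabolically active, and many of them release cytokines, growth factors and proteases, a mixture called the senescence-associated secretory phenotype. In that mixture IL-1 alpha, IL-1 beta and TNF act through their receptors on NF-kB, and NF-kB together with C/EBP beta drives transcription of Il6. Urokinase, the product of Plau, turns plasminogen into the protease plasmin at the cell surface, where it is held by its receptor, the product of Plaur. In nerve tumors these genes are not specific to senescent cells: macrophages, fibroblasts and injured Schwann cells are also known to express several of them.

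Bulk RNA was sequenced from 12 neurofibromas, 4 paraspinal tumors (2 of subgroup 2 and 2 of subgroup 1) and 4 tumors that the labels call GEM-PNST, a name for nerve sheath tumors of engineered mice. Every mouse was Nf1fl/fl; DhhCre on the C57BL/6J strain, in which a Cre recombinase under the Desert hedgehog promoter deletes Nf1 in Schwann cells and their precursors, while other cells of the tumor keep the gene. The paraspinal and GEM-PNST mice were also Ink4a/Arf+/-, and the neurofibroma mice were not, per the labels. No drug was given, and ages are not in the labels, which say only that mice were kept to a set time or a tumor size limit. The labels call the paraspinal subgroups sub-clusters, so the division may itself rest on these libraries, and a test between them is then not independent of it.

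Neurofibroma libraries held 9900759 to 17594164 counts, paraspinal libraries 18474071 to 24314222 and GEM-PNST libraries 16282605 to 22218382. Neurofibroma libraries 1 to 6 came from 1 sequencing run, and libraries 7 to 12 from another. The 8 other libraries came together from a further run, so run, genotype and stage cannot be told apart in a comparison with neurofibroma. Nf1 had 218 to 276 CPM (counts per 1000000 counts of the library) in neurofibroma, 35.9 to 40.7 CPM in paraspinal subgroup 2, 88.1 to 89.9 CPM in paraspinal subgroup 1 and 22.5 to 30.7 CPM in GEM-PNST libraries. Cdkn2a, the transcript of the Ink4a/Arf locus, had 0.0860 to 1.43 CPM in neurofibroma, 20.1 and 36.3 CPM in paraspinal subgroup 2, 7.93 and 15.2 CPM in paraspinal subgroup 1 and 0.541 to 9.88 CPM in GEM-PNST libraries. Markers of the Schwann cell lineage summed to 1858 to 5092 CPM in neurofibroma, to 5031 to 9486 CPM in paraspinal tumors and to only 2.44 to 1025 CPM in GEM-PNST. In bulk samples, fewer cells of a type and less RNA per cell cannot be told apart.

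Of the 9 genes, 8 had their highest group mean CPM in GEM-PNST tumors, all but Lif, and 7 of those 8 had the next in paraspinal subgroup 2, all but Il1a. The mean log2 CPM of Il1b was instead higher in paraspinal subgroup 2 (3.64) than in GEM-PNST (3.03). Tumors of the same group differed widely. GEM-PNST library 2 was the highest of all 20 libraries for Il6, Il1b, Plau, Plaur and Igfbp3, GEM-PNST library 1 for Il1a and Gdf15, GEM-PNST library 3 for Tnf, and paraspinal subgroup 2 library 1 for Lif. Among the 4 paraspinal libraries, subgroup 2 library 1 was the highest for 8 of the 9 genes and subgroup 2 library 2 for Il1a. The map of each gene in each library shows that no GEM-PNST tumor was high for all of them.

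**Figure D1:**
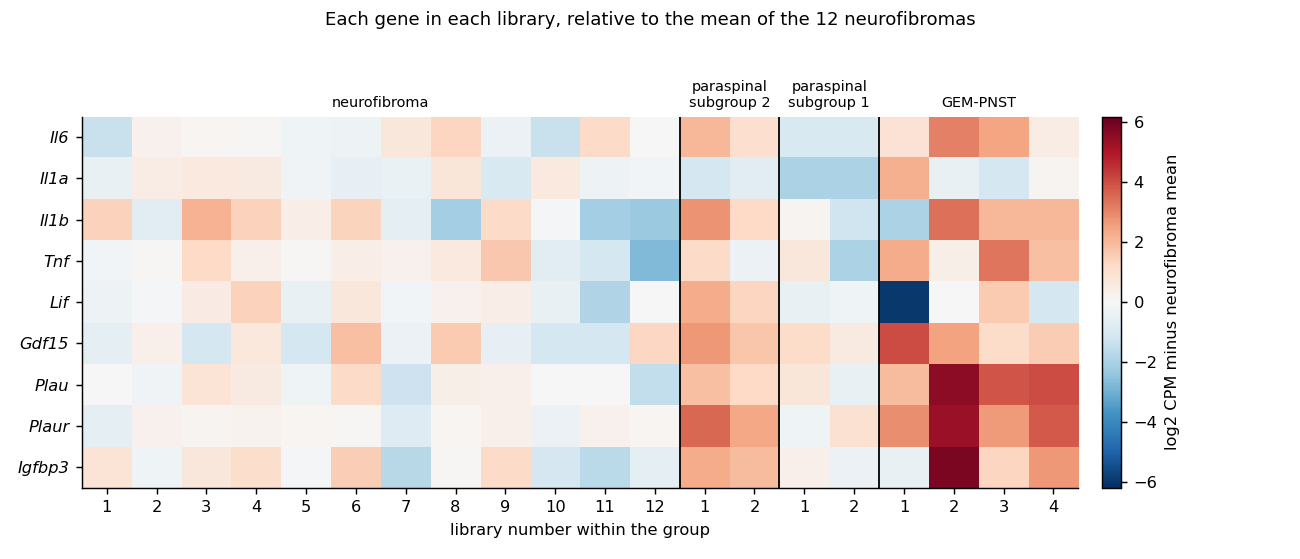
Each cell is a gene's log2 CPM in a library minus that gene's mean over the 12 neurofibroma libraries; columns run from neurofibroma through paraspinal subgroup 2 and subgroup 1 to GEM-PNST, and red is above the neurofibroma mean. GEM-PNST library 2 is dark red for Plau, Plaur and Igfbp3, and GEM-PNST library 1 is dark blue for Lif, with 0 counts.

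Il6, on chromosome 5 at chr5:30013114-30019981 (plus strand, GRCm38), encodes the cytokine interleukin 6. It was scarce: the neurofibroma libraries ran from 0 CPM through a median of 0.211 CPM to 0.679 CPM, paraspinal subgroup 2 had 1.22 and 0.548 CPM, paraspinal subgroup 1 had 0.0414 and 0.0443 CPM, and GEM-PNST had 0.475, 2.71, 1.64 and 0.324 CPM. In counts that was 25 and 15 reads in paraspinal subgroup 2 and a single read in each library of subgroup 1. GEM-PNST libraries 2 and 3 and paraspinal subgroup 2 library 1 were above every neurofibroma, while both subgroup 1 libraries were within the neurofibroma range.

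Tnf, on chromosome 17 at chr17:35199381-35202007 (minus strand), encodes tumor necrosis factor, made chiefly by macrophages. Neurofibroma libraries ran from 0 CPM through a median of 0.797 CPM to 2.48 CPM, paraspinal subgroup 2 had 1.75 and 0.511 CPM, paraspinal subgroup 1 had 1.20 and 0.0886 CPM, and GEM-PNST had 3.93, 0.920, 8.11 and 2.83 CPM. The subgroups overlapped, and 3 of the 4 GEM-PNST libraries were above every neurofibroma.

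Il1a and Il1b lie near each other on chromosome 2, at chr2:129299610-129309972 and chr2:129364570-129371139, both on the minus strand, and encode cytokines that share the IL-1 receptor; IL-1 alpha is made in active form and IL-1 beta must be cut by an inflammasome protease. Il1a had 0.124 to 0.679 CPM in neurofibroma with a median of 0.297 CPM, 0.0973 and 0.183 CPM in paraspinal subgroup 2, 0 CPM in both libraries of paraspinal subgroup 1, and 2.03, 0.216, 0.0995 and 0.405 CPM in GEM-PNST. The 0 counts of subgroup 1 allow levels up to 0.124 and 0.133 CPM (3 counts, counting error only); the libraries of subgroup 2 had 2 and 5 reads. Il1b had 0.505 to 13.5 CPM in neurofibroma with a median of 3.37 CPM, 20.98 and 7.19 CPM in paraspinal subgroup 2, 3.31 and 1.20 CPM in paraspinal subgroup 1, and 0.678, 33.2, 12.8 and 12.7 CPM in GEM-PNST.

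The IL-1 genes were thus high in different tumors: GEM-PNST library 1 was the highest library of the series for Il1a and the lowest of its group for Il1b. Each overlaps a gene on the other strand in the GENCODE annotation, Gm14023 for Il1a and Il1bos for Il1b, and no source says that strand was used in counting, so reads of the partners cannot be told apart. Among neurofibromas, Il1b had a median of 8.06 CPM in the libraries of the first run and 1.25 CPM in those of the second, with ranges that overlapped. Summed macrophage markers were 478 to 1271 CPM in the first run and 104 to 1077 CPM in the second; their part in the Il1b level was not tested.

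Lif, on chromosome 11 at chr11:4257557-4272514 (plus strand), encodes leukemia inhibitory factor, an IL-6 family cytokine that is induced in injured nerve. Neurofibroma libraries ran from 2.07 CPM through a median of 7.60 CPM to 21.6 CPM, paraspinal subgroup 2 had 38.8 and 19.8 CPM, paraspinal subgroup 1 had 5.71 and 6.43 CPM, and GEM-PNST had 0, 8.01, 24.7 and 3.64 CPM. Lif differed from the other genes in that paraspinal subgroup 2 and not GEM-PNST had the highest mean CPM. The 0 counts of GEM-PNST library 1 allow a level up to 0.203 CPM, below every other library, and the same library had summed fibroblast markers of 490 CPM and summed Schwann cell lineage markers of 2.44 CPM, against 10102 to 23021 CPM and 41.9 to 1025 CPM in the other GEM-PNST libraries; their part in the Lif level was not tested.

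Gdf15, on chromosome 8 at chr8:70629393-70632456 (minus strand), encodes growth differentiation factor 15, a secreted stress signal whose receptor GFRAL works with RET. Neurofibroma libraries ran from 0 CPM through a median of 0.0703 CPM to 0.820 CPM, with 4 of the 12 at 0 counts; paraspinal subgroup 2 had 1.56 and 0.730 CPM, paraspinal subgroup 1 had 0.455 and 0.266 CPM, and GEM-PNST had 4.14, 1.35, 0.448 and 0.648 CPM. Both subgroups and the neurofibromas were low beside GEM-PNST library 1, which stood above all others.

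Plau, on chromosome 14 at chr14:20836660-20843385 (plus strand), had 3.23 to 22.5 CPM in neurofibroma with a median of 9.79 CPM, 36.0 and 23.2 CPM in paraspinal subgroup 2, 16.1 and 7.05 CPM in paraspinal subgroup 1, and 37.6, 465, 144 and 162 CPM in GEM-PNST. The lowest GEM-PNST library was above the highest paraspinal library, and both libraries of subgroup 2 were above every neurofibroma. Plau was the only one of the 9 genes whose GEM-PNST and paraspinal libraries did not overlap.

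Plaur, on chromosome 7 at chr7:24462484-24475968 (plus strand), ran in neurofibromas from 1.96 CPM through a median of 3.82 CPM to 4.41 CPM. It had 43.0 and 19.0 CPM in paraspinal subgroup 2, 2.90 and 6.96 CPM in paraspinal subgroup 1, and 26.8, 147, 22.4 and 49.5 CPM in GEM-PNST. The subgroup 2 and GEM-PNST libraries all lay above every neurofibroma, and library 1 of subgroup 1 lay within the neurofibroma range.

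Igfbp3, on chromosome 11 at chr11:7206086-7213923 (minus strand), encodes the main carrier of insulin-like growth factors in blood, which also has actions of its own on cells. Neurofibroma libraries ran from 11.4 CPM through a median of 37.6 CPM to 112 CPM, paraspinal subgroup 2 had 189 and 152 CPM, paraspinal subgroup 1 had 48.2 and 30.1 CPM, and GEM-PNST had 28.2, 2234, 97.7 and 246 CPM. Subgroup 2 lay above every neurofibroma and subgroup 1 within their range, while GEM-PNST spanned from the neurofibroma range to the highest value of the series. Within neurofibroma, Igfbp3 averaged 65.6 ± 30.2 CPM in the first run and 32.5 ± 29.0 CPM in the second (SD, n = 6 each), and summed fibroblast markers were 5658 to 10774 CPM and 1640 to 6298 CPM in those runs; their part in the level was not tested.

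**Figure D2:**
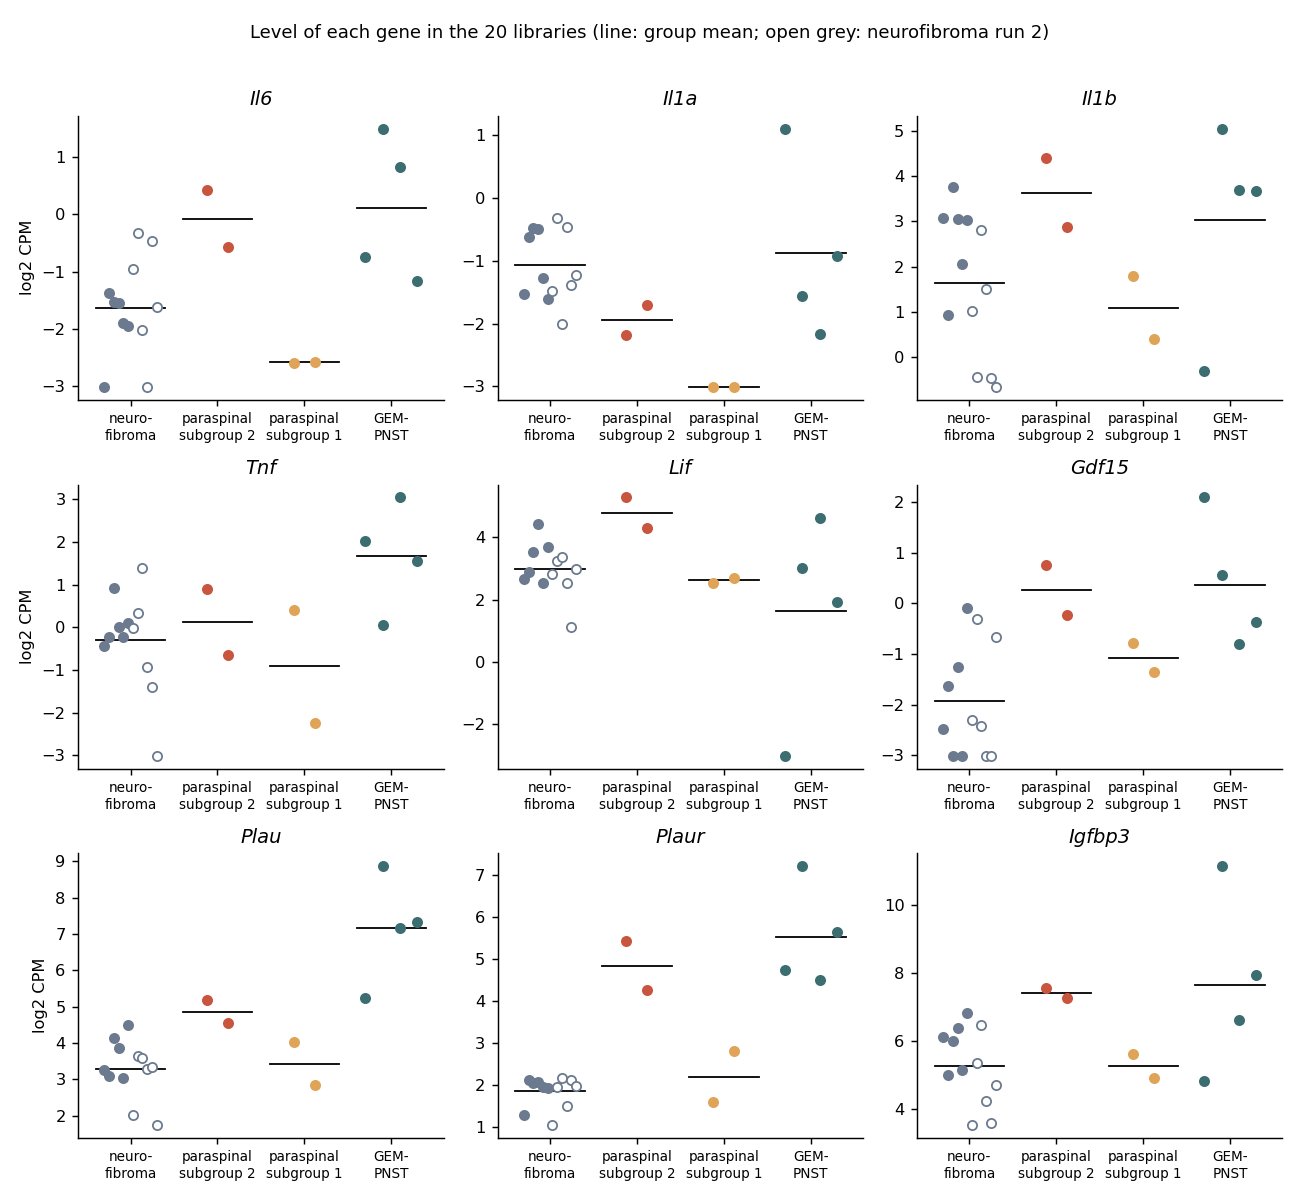
Points are libraries and the vertical axis is log2 CPM with a prior count of 2; groups run from neurofibroma (filled grey for the first run, open grey for the second) through paraspinal subgroup 2 and subgroup 1 to GEM-PNST, and the black line is the group mean. Subgroup 2 sits above subgroup 1 in all panels but that of Tnf, and GEM-PNST points spread over several log2 units.

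Levels can be compared between genes per kilobase of exon. On that scale Igfbp3 was the most abundant of the 9 in paraspinal subgroup 2, at 54.4 ± 8.48 CPM per kb (SD, n = 2), ahead of Plau at 12.5 ± 3.82, Plaur at 11.8 ± 6.47, Il1b at 7.39 ± 5.11 and Lif at 6.74 ± 3.10 CPM per kb. The other 4 genes were below 1 CPM per kb there: Tnf averaged 0.690, Gdf15 0.618, Il6 0.363 and Il1a 0.0709 CPM per kb. In GEM-PNST the plasminogen pair came next to Igfbp3, at 85.5 ± 77.6 CPM per kb for Plau and 23.5 ± 22.3 CPM per kb for Plaur (SD, n = 4), against 208 ± 338 CPM per kb for Igfbp3.

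The sequence just upstream of the start site was examined in the 8 genes for which RefSeq promoters of GRCm38.p6 were at hand (all but Plau), because AP-1, NF-kB and the stress factors ATF4 and CHOP are known regulators of this gene group. Both strands of the 250 bases before each start were searched for TGANTCA (AP-1), GGG followed by any 3 bases and TTCC (NF-kB) and TGATGNAA (ATF4 and CHOP). TGANTCA was found in 4 of the 8 genes, Il6, Plaur, Lif and Il1a, and in 6.75% of 32851 promoters of the same length. The NF-kB letters were found in Il6 alone and in 4.65% of all promoters, and TGATGNAA in none of the 8 genes and in 3.45% of all promoters. The 4 sequences that hold a match are shown 5′ to 3′ on the strand of the gene, with the match in capitals; a match is a description of these letters and not a site of binding. In Il6 (chr5:30012864-30013113) the AP-1 letters start at position -249 from the start site and the NF-kB letters at position -44, and in Il1a (chr2:129309973-129310222, minus strand) the AP-1 letters start at -12. In Plaur (chr7:24462233-24462482) they start at -69 and in Lif (chr11:4257318-4257567) at -228.
Il6: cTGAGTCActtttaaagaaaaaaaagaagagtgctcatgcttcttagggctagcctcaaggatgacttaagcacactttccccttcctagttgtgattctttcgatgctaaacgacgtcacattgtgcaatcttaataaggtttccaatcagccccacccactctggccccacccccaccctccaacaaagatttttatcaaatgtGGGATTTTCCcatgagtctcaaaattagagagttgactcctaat
Il1a: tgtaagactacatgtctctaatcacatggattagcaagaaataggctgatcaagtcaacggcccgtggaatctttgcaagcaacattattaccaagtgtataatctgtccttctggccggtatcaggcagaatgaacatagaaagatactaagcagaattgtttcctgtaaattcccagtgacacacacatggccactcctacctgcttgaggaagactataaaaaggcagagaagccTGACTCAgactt
Lif: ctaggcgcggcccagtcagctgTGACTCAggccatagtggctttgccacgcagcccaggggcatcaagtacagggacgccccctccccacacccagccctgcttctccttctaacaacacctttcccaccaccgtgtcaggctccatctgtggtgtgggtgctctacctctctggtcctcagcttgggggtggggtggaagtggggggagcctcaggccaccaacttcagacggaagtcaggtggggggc
Plaur: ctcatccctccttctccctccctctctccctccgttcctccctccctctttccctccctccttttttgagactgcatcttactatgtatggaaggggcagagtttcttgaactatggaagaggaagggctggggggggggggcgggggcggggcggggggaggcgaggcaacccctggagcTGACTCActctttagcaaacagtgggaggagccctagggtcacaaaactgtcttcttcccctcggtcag

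Between the paraspinal subgroups, the cytokines, the plasminogen pair, Gdf15 and Igfbp3 were higher in subgroup 2 than in subgroup 1 in nearly every library, but no gene passed the threshold in the fit with the GEM-PNST libraries. Plaur averaged 31.0 ± 16.9 CPM in subgroup 2 and 4.93 ± 2.87 CPM in subgroup 1. Igfbp3 averaged 170.4 ± 26.5 CPM in subgroup 2 and 39.2 ± 12.8 CPM in subgroup 1. Lif averaged 29.3 ± 13.5 CPM in subgroup 2 and 6.07 ± 0.506 CPM in subgroup 1 (SD, n = 2 each). Il6 had 40 reads in subgroup 2 and 2 reads in subgroup 1, a ratio of 19.5 after scaling, with a 95% exact counting interval of 5.06 to 167. Il1a had 7 reads in subgroup 2 and none in subgroup 1, too few to give a fold. These intervals and limits cover counting error only. The codes of the 2 libraries of subgroup 2 differ in 1 letter, and the labels do not say whether they share an animal. The tests treat them as independent.

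In the fit with the GEM-PNST libraries, edgeR's quasi-likelihood test with Benjamini-Hochberg adjustment called 0 of the 8 tested genes, and 0 of all 16589 genes (0% called). At an unadjusted p under 0.05 it named 2 of the 8, Il6 and Plaur, both higher in subgroup 2, beside 12.7% of all genes in either direction and 6.67% as higher. The log2 fold change of Il6 was 4.17 ± 1.36 (edgeR adjusted p = 0.308; SE after ±) and that of Plaur 2.64 ± 1.03 (edgeR adjusted p = 0.365). All 8 log2 fold changes were above 0, from 0.78 for Tnf to 4.17 for Il6, with a median of 2.18, against -0.01 over all genes tested. The 2 libraries of subgroup 2 lay above both of subgroup 1 for 8 of the 9 genes, or 7 of the 8 tested, and Tnf overlapped. Of all tested genes, 34.6% were higher without overlap, and 69.6% did not overlap in either direction. Il1a is among the 8 of 9 on few reads: its 0 counts in subgroup 1 allow up to 0.124 and 0.133 CPM. Subgroup 2 library 1 had 0.0973 CPM.

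Which genes passed changed with the libraries in the fit. With only the 4 paraspinal libraries, edgeR's quasi-likelihood test called Il6, Plaur, Igfbp3 and Lif, with adjusted p of 0.0387, 0.0331, 0.0123 and 0.0172, where 29.3% of all genes were called, 14.3% as higher. With all 20 libraries it called Plaur alone (edgeR adjusted p = 0.0288), with 7.42% of all genes called and 2.95% as higher. DESeq2 called none of the 8, with 7.31% of all genes called and 3.05% as higher. Summed macrophage markers were 2081 and 1749 CPM in subgroup 2 and 1073 and 427 CPM in subgroup 1, with 13 of 14 markers at a log2 fold change above 0 and none past the threshold. Summed fibroblast markers were 16342 and 12343 CPM in subgroup 2 and 9426 and 5970 CPM in subgroup 1, with 10 of 11 above 0; no marker of either list was at 0 counts in either subgroup, and their part in the difference was not tested. Schwann cell lineage markers summed to 5354 and 7548 CPM in subgroup 2 and 5031 and 9486 CPM in subgroup 1.

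**Figure D3:**
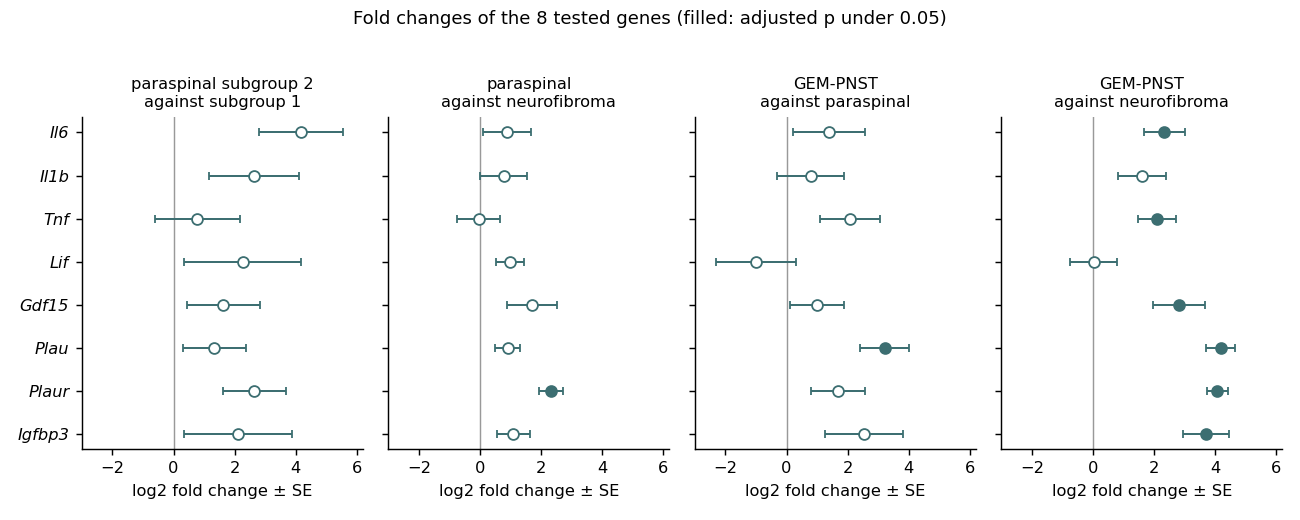
Points are log2 fold changes of the 8 tested genes with bars of 1 SE, from edgeR's quasi-likelihood fit of each comparison; a positive value is higher in the group named first, and filled points passed an adjusted p of 0.05. The subgroups have no filled point, the next 2 panels have 1 each (Plaur, then Plau), and the last panel has 6.

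Paraspinal tumors were set against neurofibromas to ask what differs between stages; this comparison and the next ones share libraries with each other. Plaur, the urokinase receptor, was the gene that rose: it averaged 18.0 ± 18.0 CPM in paraspinal tumors (SD, n = 4) and 3.59 ± 0.797 CPM in neurofibromas (SD, n = 12), a log2 fold change of 2.32 ± 0.41 (edgeR's quasi-likelihood adjusted p = 0.000105), and 3 of the 4 paraspinal libraries were above every neurofibroma. It was 1 of 8 tested genes called, and 59.4% of all genes were called here, 30.2% as higher. Plau, at 20.6 ± 12.2 CPM in paraspinal tumors and 10.95 ± 5.39 CPM in neurofibromas, had an adjusted p of 0.0669 in edgeR's quasi-likelihood test. Of the 9 genes, 0 were separated without overlap, where 36.5% of all genes were and 18.4% as higher. The median log2 fold change was 0.94 over the 8 genes and -0.02 over all genes. Macrophage markers summed to 427 to 2081 CPM in paraspinal tumors and 104 to 1271 CPM in neurofibromas, with 4 of 14 higher and 1 lower. Fibroblast markers summed to 5970 to 16342 CPM in paraspinal tumors and 1640 to 10774 CPM in neurofibromas, with 7 of 11 higher; the part of these markers in the Plaur difference was not tested.

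Each subgroup was also set against neurofibroma by itself; whether their differences from neurofibroma are unequal was not tested. With subgroup 2 alone against neurofibroma, edgeR's quasi-likelihood test called Plaur, Lif, Plau and Igfbp3 as higher, with log2 fold changes of 3.06, 1.66, 1.38 and 1.74, where 60.1% of all genes were called and 28.7% as higher. With subgroup 1 alone it called 0 of the 8, where 44.7% of all genes were called and 22.7% as higher, and the log2 fold change of Plaur was 0.47 (adjusted p = 0.267). In that fit the log2 fold changes of Il6, Il1b, Igfbp3 and Lif, above 0 with both subgroups, turned below 0. They were -2.30, -1.06, -0.31 and -0.54, none past the threshold. Tnf, already at -0.04 with both subgroups, averaged 0.644 CPM in subgroup 1 and 0.902 CPM in neurofibromas. Leaving out library 2 of subgroup 1 added Plau, Igfbp3 and Lif to the calls (edgeR adjusted p = 0.0168, 0.0394 and 0.0311), and leaving out its library 1 or neurofibroma library 4 added Lif (edgeR adjusted p = 0.0277 and 0.0275). Il1a, below the filter, had 0.0700 ± 0.0880 CPM in paraspinal tumors and 0.386 ± 0.195 CPM in neurofibromas; in the fit without a filter its log2 fold change was -2.28 ± 0.74 (edgeR's quasi-likelihood adjusted p = 0.0162).

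GEM-PNST tumors were set against paraspinal tumors, which carry the same genotype label and came from the same run. Plau rose: it averaged 202 ± 184 CPM in GEM-PNST and 20.6 ± 12.2 CPM in paraspinal tumors (SD, n = 4 each), a log2 fold change of 3.21 ± 0.79 (edgeR's quasi-likelihood adjusted p = 0.0418), with 4 of 4 GEM-PNST libraries above every paraspinal library. It was 1 of 8 tested genes called, against 10.2% of all genes called, 2.48% as higher and 7.69% as lower. It was 1 of 9 without overlap, against 11.2% of all tested genes higher without overlap and 27.6% in either direction. Plaur averaged 61.4 ± 58.3 CPM in GEM-PNST and 18.0 ± 18.0 CPM in paraspinal tumors. Igfbp3 averaged 651 ± 1059 CPM in GEM-PNST and 105 ± 77.6 CPM in paraspinal tumors. Tnf averaged 3.95 ± 3.04 CPM in GEM-PNST and 0.888 ± 0.736 CPM in paraspinal tumors. None of these 3 passed the threshold. Lif was the one tested gene with a lower level, at 9.09 ± 10.9 CPM in GEM-PNST and 17.7 ± 15.5 CPM in paraspinal tumors, a log2 fold change of -0.997 ± 1.32. The median log2 fold change was 1.54 over the 8 genes and 0 over all genes.

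Library 1 of paraspinal subgroup 1 and GEM-PNST library 2 carry codes that differ only in the case of a letter and the last letter, and the labels do not say whether they share an animal; the tests treat them as independent. The call of Plau was lost without any 1 of 6 libraries. Its edgeR adjusted p was 0.0561 and 0.0913 without library 1 or 2 of paraspinal subgroup 2, 0.123 and 0.109 without library 1 or 2 of subgroup 1, and 0.0614 and 0.0743 without GEM-PNST library 2 or 4, while its log2 fold change stayed between 2.45 and 3.63. With subgroup 2 alone the log2 fold change was 2.72 and with subgroup 1 alone 4.08, neither past the threshold (edgeR adjusted p = 0.354 and 0.0765). With all 20 libraries in the fit, Il6, Plau, Plaur and Igfbp3 were called, where 42.6% of all genes were called and 23.1% as higher. Macrophage markers summed to 2117 to 6002 CPM in GEM-PNST and 427 to 2081 CPM in paraspinal tumors. GEM-PNST library 2, the highest for Plau, had the lowest macrophage sum of its group. Sensory neuron markers summed to 33.8 to 485 CPM in GEM-PNST, with Scn10a at 0 counts, and 2765 to 4193 CPM in paraspinal tumors. Their part in the Plau difference was not tested.

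Against neurofibroma, GEM-PNST tumors had more transcript of 6 of the 8 tested genes. The plasminogen pair rose: Plau averaged 202 ± 184 CPM in GEM-PNST and 10.95 ± 5.39 CPM in neurofibroma, an 18.1-fold difference. Plaur averaged 61.4 ± 58.3 CPM in GEM-PNST and 3.59 ± 0.797 CPM in neurofibroma, a 16.7-fold difference (SD, n = 4 and 12). Their log2 fold changes were 4.17 ± 0.46 and 4.07 ± 0.34 (edgeR's quasi-likelihood adjusted p = 5.94e-07 and 2.31e-08). Igfbp3, Gdf15, Il6 and Tnf also rose, by log2 fold changes of 3.70 ± 0.74, 2.81 ± 0.85, 2.33 ± 0.67 and 2.10 ± 0.61 (edgeR's quasi-likelihood adjusted p = 0.000304, 0.00734, 0.00494 and 0.00575). Il1b averaged 14.8 ± 13.5 CPM in GEM-PNST and 4.74 ± 4.15 CPM in neurofibroma with an adjusted p of 0.0750 in edgeR's test. Lif averaged 9.09 ± 10.9 CPM in GEM-PNST and 8.95 ± 4.93 CPM in neurofibroma with an adjusted p of 0.984.

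These 6 of 8 calls stand beside 73.1% of all genes called in this comparison, 35% as higher. Only Plau and Plaur, 2 of the 9, had all 4 GEM-PNST libraries above all 12 neurofibromas, where 21.3% of all tested genes were higher without overlap and 46.5% did not overlap in either direction. Leaving out each GEM-PNST library or neurofibroma library 4 changed 4 calls. Igfbp3 was not called without GEM-PNST library 2 (log2 fold change 1.32, edgeR adjusted p = 0.0705), nor Gdf15 without library 1 (1.81, edgeR adjusted p = 0.0885), nor Tnf without library 3 (1.46, edgeR adjusted p = 0.0598). Il1b was called without library 1 (2.01, edgeR adjusted p = 0.0222). Against the neurofibromas of the second run alone, Il6 and Tnf were not called (edgeR adjusted p = 0.0729 and 0.0625) and Il1b was (edgeR adjusted p = 0.0295). In that fit 10685 of the 16589 tested genes were called. Against those of the first run alone, 10794 were called, with the same 6 of the 8 as against all 12. Macrophage markers summed to 2117 to 6002 CPM in GEM-PNST and 104 to 1271 CPM in neurofibroma, with 9 of 14 higher and 1 lower. Fibroblast markers summed to 490 to 23021 CPM in GEM-PNST and 1640 to 10774 CPM in neurofibroma, with 7 of 11 higher and 1 lower. Of the Schwann cell lineage markers 7 of 10 were lower, and of the sensory neuron markers 11 of 12. The part of all these markers in the differences was not tested. The median log2 fold change was 2.57 over the 8 genes and -0.14 over all genes, and with RLE factors the median of all genes was -0.28, a shift of -0.14. Lif, at 0.02 with TMM factors, was at -0.17 with RLE factors, which is 0.16 and 0.11 above the median gene.

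Other genes of the same pathways were taken from lists chosen by function, with earlier results of these data known. Between the paraspinal subgroups, edgeR's quasi-likelihood test called none of them, in any of the 8 lists. Il1rn, the IL-1 receptor antagonist, averaged 4.87 ± 4.82 CPM in subgroup 2 and 0.844 ± 0.374 CPM in subgroup 1. Tnfrsf1a, the main TNF receptor, averaged 209 ± 27.9 CPM in subgroup 2 and 72.8 ± 21.3 CPM in subgroup 1. Atf4, the transcription factor of the integrated stress response, averaged 280 ± 39.5 CPM in subgroup 2 and 148 ± 9.66 CPM in subgroup 1. Glb1, the lysosomal beta-galactosidase used as a senescence stain, averaged 65.8 ± 5.33 CPM in subgroup 2 and 31.1 ± 1.90 CPM in subgroup 1. The lysosomal protease Ctsb averaged 2772 ± 632 CPM in subgroup 2 and 1132 ± 28.0 CPM in subgroup 1. Irs2, an adaptor of the insulin and IGF receptors, went the other way, at 2.16 ± 0.731 CPM in subgroup 2 and 31.1 ± 0.239 CPM in subgroup 1, as did the kinase Jak1, at 127 ± 1.04 CPM in subgroup 2 and 230 ± 47.9 CPM in subgroup 1. None of these 7 passed (edgeR adjusted p of 0.288 to 0.372), and the list of other senescence-associated secreted factors had 30 of 38 genes at a log2 fold change above 0 with a median of 1.33, against -0.01 over all genes.

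Paraspinal tumors differed from neurofibromas in many genes of the IL-6 and TNF lists. In the list of IL-6 family, receptors and signalling, 13 of 25 genes were higher and 6 lower, against 30.2% and 29.2% of all genes. Cebpb, the transcription factor that drives Il6, averaged 17.3 ± 11.9 CPM in paraspinal tumors and 0.899 ± 0.464 CPM in neurofibromas. Socs1, a feedback inhibitor of cytokine signalling, averaged 4.92 ± 2.05 CPM in paraspinal tumors and 0.371 ± 0.340 CPM in neurofibromas. Among those lower, the receptor chain gene Il6st averaged 429 ± 160 CPM in paraspinal tumors and 844 ± 141 CPM in neurofibromas. The kinase gene Jak1 averaged 179 ± 66.0 CPM in paraspinal tumors and 304 ± 76.2 CPM in neurofibromas. Their adjusted p were 0.00114 and 0.00932 in edgeR's quasi-likelihood test. In the TNF and NF-kB list 13 of 25 were higher and 5 lower, with Nfkbia, the inhibitor that NF-kB itself induces, at 77.0 ± 27.3 CPM in paraspinal tumors and 9.11 ± 3.20 CPM in neurofibromas. Relb, an NF-kB subunit, averaged 32.3 ± 7.11 CPM in paraspinal tumors and 4.97 ± 1.87 CPM in neurofibromas. The stress response list around Gdf15 had 9 of 16 higher and 1 lower, among them Ddit3 (CHOP), at 38.0 ± 13.3 CPM in paraspinal tumors and 9.86 ± 2.15 CPM in neurofibromas. In the IL-1 list 3 of 21 were higher and 2 lower: the adaptor Myd88 rose, at 36.6 ± 13.9 CPM in paraspinal tumors and 9.12 ± 3.27 CPM in neurofibromas, and the ubiquitin ligase Traf6 fell, at 18.0 ± 5.18 CPM in paraspinal tumors and 52.8 ± 6.73 CPM in neurofibromas.

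The next 4 lists had called counts to be read beside 30.2% of all genes higher and 29.2% lower. The plasminogen list had 7 of 21 genes higher and 5 lower in paraspinal tumors against neurofibromas. Anxa2, which holds plasminogen at the cell surface, averaged 1139 ± 518 CPM in paraspinal tumors and 298 ± 71.9 CPM in neurofibromas. Vtn, the matrix protein vitronectin that binds the urokinase receptor, averaged 40.7 ± 11.1 CPM in paraspinal tumors and 15.4 ± 4.82 CPM in neurofibromas. In the IGF list 6 of 18 were higher, such as the IGF carrier Igfbp4 at 898 ± 623 CPM in paraspinal tumors and 103 ± 43.0 CPM in neurofibromas, and 5 were lower. The insulin receptor Insr averaged 44.3 ± 8.52 CPM in paraspinal tumors and 177 ± 41.0 CPM in neurofibromas. Of other secreted factors 12 of 38 were higher and 5 lower; Tgfb1 averaged 61.9 ± 41.7 CPM in paraspinal tumors and 8.59 ± 4.81 CPM in neurofibromas. Timp1, an inhibitor of matrix proteases, averaged 478 ± 713 CPM in paraspinal tumors and 24.8 ± 19.4 CPM in neurofibromas, but the log2 fold change of Timp1 was -0.05 with subgroup 1 alone. Of 14 senescence markers 4 were higher and 4 lower, with Cdkn2a at 19.9 ± 12.05 CPM in paraspinal tumors and 0.485 ± 0.401 CPM in neurofibromas. The retinoblastoma gene Rb1 averaged 18.5 ± 6.94 CPM in paraspinal tumors and 99.2 ± 11.5 CPM in neurofibromas. Apart from Il6st and Jak1, each gene named for these lists had an adjusted p of 0.000487 or less in edgeR's quasi-likelihood test.

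In GEM-PNST against paraspinal tumors 0 to 2 genes of each pathway list were called in either direction, where 2.48% of all genes were higher and 7.69% lower. A2m, a broad protease inhibitor that also traps plasmin, fell: it averaged 0.0462 ± 0.0337 CPM in GEM-PNST and 44.0 ± 20.3 CPM in paraspinal tumors (edgeR's quasi-likelihood adjusted p = 0.00108). Ret, the signalling partner of the GDF15 receptor, fell too, at 1.45 ± 1.25 CPM in GEM-PNST and 242 ± 122 CPM in paraspinal tumors (edgeR adjusted p = 0.00593). Both stayed past the threshold whichever single library was left out. Over all 16 other settings tried, A2m stayed past it in each, and Ret did not. Sensory neuron markers summed to 33.8 to 485 CPM in GEM-PNST and 2765 to 4193 CPM in paraspinal tumors. Schwann cell lineage markers summed to 2.44 to 1025 CPM in GEM-PNST and 5031 to 9486 CPM in paraspinal tumors. The part of these markers in the A2m and Ret differences was not tested. Il6st, the gp130 chain shared by the receptors of IL-6 and LIF, averaged 112 ± 52.0 CPM in GEM-PNST and 429 ± 160 CPM in paraspinal tumors (edgeR adjusted p = 0.0391), a call that was lost without any 1 of the 4 paraspinal libraries or GEM-PNST library 2 or 4 (edgeR adjusted p = 0.0510 to 0.110). Vcam1, an adhesion molecule induced by TNF, averaged 129 ± 96.7 CPM in GEM-PNST and 15.3 ± 1.94 CPM in paraspinal tumors (edgeR adjusted p = 0.0141), and without library 1 or 2 of paraspinal subgroup 1 its edgeR adjusted p was 0.0503 and 0.0527. In all, 1 of 21 genes of the IL-1 list, 1 of 25 of the TNF and NF-kB list, 1 of 18 of the IGF list, 1 of 38 other secreted factors and 2 of 14 senescence markers were higher, and 2 of 25 of the IL-6 list, 2 of 21 of the plasminogen list and 1 of 16 of the stress list were lower.

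Against neurofibroma, GEM-PNST tumors had 18 of 25 genes of the TNF and NF-kB list higher and 4 lower. In the IL-6 list 14 of 25 were higher and 7 lower, in the IL-1 list 10 of 21 and 4, and among other secreted factors 20 of 38 and 3. Of all genes, 35% were higher and 38.1% lower. Tradd, an adaptor of the TNF receptor, averaged 53.3 ± 21.6 CPM in GEM-PNST and 2.21 ± 0.826 CPM in neurofibroma. Il1r2, the decoy receptor that captures IL-1, averaged 108 ± 198 CPM in GEM-PNST and 0.628 ± 0.463 CPM in neurofibroma, of which GEM-PNST library 1 had 405 CPM and the other 3 had 7.81 to 11.01 CPM. The plasminogen list had 8 of 21 higher and 5 lower, with the plasminogen receptor Plgrkt at 47.0 ± 15.3 CPM in GEM-PNST and 17.9 ± 3.81 CPM in neurofibroma. The IGF list had 8 of 18 higher and 4 lower, including Tmem219, a receptor for IGFBP3, at 84.0 ± 74.3 CPM in GEM-PNST and 12.5 ± 3.39 CPM in neurofibroma. The stress list had 8 of 16 higher and 2 lower, including Trib3 at 5.21 ± 1.39 CPM in GEM-PNST and 0.836 ± 0.323 CPM in neurofibroma. Of the senescence markers 8 of 14 were higher and 5 lower: Lmnb1, the lamin that senescent cells lose, averaged 50.1 ± 36.0 CPM in GEM-PNST and 4.13 ± 2.04 CPM in neurofibroma. Trp53 averaged 195 ± 70.5 CPM in GEM-PNST and 54.5 ± 11.3 CPM in neurofibroma. Each gene named here had an adjusted p of 7.38e-06 or less in edgeR's quasi-likelihood test.

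**Figure D4:**
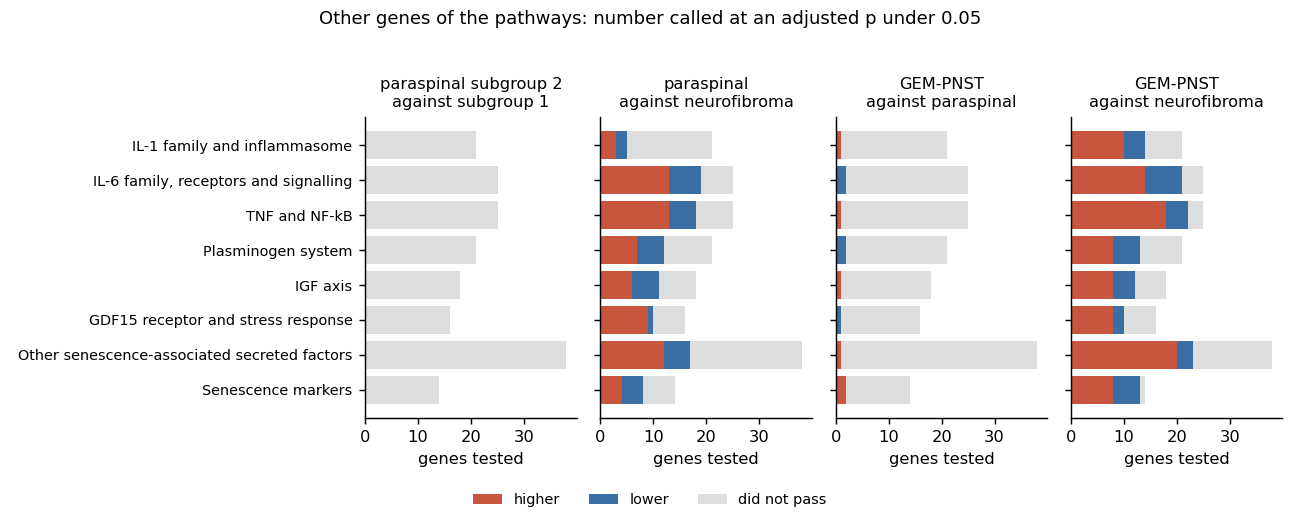
Bars count the tested genes of each pathway list that were higher (red), lower (blue) or did not pass an adjusted p of 0.05 (grey) in edgeR's quasi-likelihood test; the 9 genes themselves are left out. No bar has color for the subgroups, and most genes of the TNF and NF-kB list are red for GEM-PNST against neurofibroma, 18 of 25.

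The 8 tested genes followed each other to unequal degrees over the 20 libraries. Plau and Plaur had a Pearson correlation of log2 CPM of 0.87, and 0.51 after the means of the 4 groups were taken out; Plau and Igfbp3 had 0.82 both ways, and Il1b and Igfbp3 0.81 and 0.77. Lif and Plaur had -0.05 and 0.24, and Gdf15 and Lif -0.20 and -0.21. These are descriptions over libraries that share group, run and depth, and the second value is the one with the groups taken out.

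Among all 16589 tested genes, those most like each gene over the 20 libraries were again chosen by Pearson correlation of log2 CPM. For Plaur they were S100a6 (0.97, and 0.73 with the group means taken out) and Mak16 (0.96 and 0.71), and for Plau Tmem86a (0.94 and 0.77) and Polm (0.94 and 0.78). For Igfbp3 they were Itgb1 (0.94 and 0.92) and Nfatc4 (0.93 and 0.92), and for Lif Kctd11 (0.93 and 0.94) and Fbln7 (0.93 and 0.94). The correlations of these 4 with Igfbp3 or Lif were 0.92 to 0.94 with the group means taken out. Those values are pooled over all groups, and no group was correlated by itself. Il1b was most like Il18rap (0.87 and 0.88) and Emp1 (0.85 and 0.83), and Tnf most like Tlr1 (0.86 and 0.79) and Gemin6 (0.86 and 0.78). Gdf15 was most like Zfp282 (0.84 and 0.71) and Pradc1 (0.84 and 0.64). Il6, which had the fewest reads of the 8 in paraspinal subgroup 1, reached only 0.77 with both Ppp2r3d and Tgds, and 0.51 and 0.41 with the group means taken out.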

How the data were processed

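The authors deposited 1 table of raw counts per gene for 20 libraries, whose columns all hold whole numbers. RNA came from the RNeasy Plus Micro Kit and libraries from the Nextera XT kit, per the labels' protocols. TopHat, HISAT2, featureCounts and the mm10 build are named in the submitters' processing notes; their roles, versions, annotation and strand setting are not given in the sources used here. Columns were matched to samples by name, and the 3 runs were read from the deposited alignment file names. No label says that libraries came from separate animals, and 2 neurofibroma libraries (8 and 9) carry codes with the same number, as do paraspinal subgroup 1 library 1 and GEM-PNST library 2, so p-values measure the spread between these samples. None of 78 pairs of libraries of the same stage looked like 1 library deposited again (chi-square per degree of freedom of 22.6 or more).

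The 9 genes and all lists were chosen with earlier results of these data known. CPM values divide counts by library size after TMM scaling over the 20 libraries and are given per 1000000 counts; log2 CPM add a prior count of 2. edgeR's expression filter kept 16589 of 24062 genes, which hold 95.8% to 99.97% of each library's counts, the lowest share in GEM-PNST library 3. Tests were quasi-likelihood F tests (edgeR 4.0.16, R 4.3.3) on the counts, with TMM factors from the libraries of the fit, Benjamini-Hochberg adjustment over all tested genes and a threshold of 0.05; SE follow from the fold change and its F value. Each stage comparison used the libraries of its 2 stages, and the subgroups were fitted with GEM-PNST. The tests were tried on simulated counts with known changes. Named were the 9 genes, a selection from the 3 smallest p past the threshold in each list and comparison (or the smallest where none passed), and the 2 genes most like each tested one; 1 gene that the rule names is not reported here, and Nf1 was added outside it to check the genotype. Positions and exon lengths are from GENCODE M21 on GRCm38, the assembly also called mm10. The settings varied were RLE scaling, filtering (none, or 1 CPM in at least 4 libraries), the tool (DESeq2 1.42.0), the libraries in the fit, a replicate block, and single libraries left out.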

Additional observations from a re-analysis of the deposited data

Results flagged for a closer look

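Of 18 groups of 4 libraries examined, 2 held a library far from the other 3; the limit used is set so that chance flags about 1 in 20 groups of normally distributed values, and its rate on these CPM values was not measured. Il1a had 2.03 CPM in GEM-PNST library 1, from 30 reads, and the nearest of the other 3 GEM-PNST libraries had 0.405 CPM, a gap of 0.842 of the whole range. Igfbp3 had 2234 CPM in GEM-PNST library 2, and the nearest of the others had 246 CPM, a gap of 0.901 of the range.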

How the results depend on the processing

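Counts here are of the 16589 genes tested and of the 8 of the 9 genes that passed the filter, without Il1a. Between the paraspinal subgroups, 0 genes were called in the main fit and 1212 with DESeq2 (0 of the 8). With all 20 libraries 1231 were called (1 of the 8, Plaur), and 4859 with only the 4 paraspinal libraries (4 of the 8). Leaving out any 1 GEM-PNST library gave 0 genes and 0 of the 8. For paraspinal against neurofibroma, 9858 genes and 1 of the 8 were called, and 2762 and 0 with the replicate block. Subgroup 2 alone gave 9965 genes and 4 of the 8, subgroup 1 alone 7422 and 0, and neurofibroma run 2 alone 8724 and 2. Single libraries left out gave 8766 to 9995 genes and 1 to 4 of the 8. Left out in turn were each paraspinal library and, of the 12 neurofibromas, only library 4. For GEM-PNST against paraspinal, 1686 genes and 1 of the 8 were called, and 4711 genes with DESeq2. All 20 libraries gave 7060 genes and 4 of the 8, and the block 840 and 0. Subgroup 2 alone gave 61 genes and 0 of the 8, and subgroup 1 alone 1328 and 0. Single libraries left out gave 507 to 2304 genes and 0 to 1 of the 8. For GEM-PNST against neurofibroma, 12119 genes and 6 of the 8 were called, and 7204 and 2 with the block. The stricter filter (1 CPM in at least 4 libraries) left 15975 genes, of which 11751 were called. Tnf, Plau, Plaur and Igfbp3 were called there, and Il6 and Gdf15 did not pass that filter. Single libraries left out gave 11792 to 12129 genes and 5 to 6 of the 8. Left out in turn were each GEM-PNST library and, of the neurofibromas, only library 4. Neurofibroma run 2 alone gave 10685 genes and 5 of the 8, without Il6 and Tnf and with Il1b. The cause of these shifts was not tested. Whether the replicate numbers pair the samples was not settled, so the block is a check only. Same-numbered libraries had correlations of -0.26 to 0.17 between their deviations from the group means. In a group of 2 libraries these deviations mirror each other, so the correlations cannot decide it. Directions that turned, none past the threshold, are given as log2 fold changes, with the range over single libraries left out. Tnf between the subgroups ranged from -0.36 to 3.57 and was also below 0 (-0.07) without library 2 of subgroup 1. In paraspinal against neurofibroma, Il6 ranged from -0.19 to 1.30 and was -0.27 with all 20 libraries and -2.30 with subgroup 1 alone, Il1b ranged from -0.29 to 1.18 and was -1.06 with subgroup 1 alone, and Tnf ranged from -0.60 to 0.37 (0.19 without library 2 of subgroup 2) and was 0.25 with subgroup 2 alone and 0.014 with neurofibroma run 2 alone. With subgroup 1 alone Igfbp3 was -0.31, Lif -0.54 and Timp1 -0.047. Lif in GEM-PNST against paraspinal was 0.58 with subgroup 1 alone. Lif in GEM-PNST against neurofibroma ranged from -1.22 to 0.39 and was -0.17 with RLE factors and with DESeq2, -0.0049 without a filter, -1.53 with the block and -0.29 with neurofibroma run 1 alone. Depth limits Il6, Il1a and Gdf15, which had at most 50, 30 and 61 reads in any library.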
